A study of Mus musculus with 14 samples.

Results

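A set of 9 genes tied to lymphocyte quiescence and to leaving or staying in a tissue were followed through the RNA sequencing of mouse lung group 2 innate lymphoid cells (ILC2s). They are Klf2, Klf3, Klf6, S1pr1, S1pr4, Cd69, Foxo1, Foxo3 and Btg1, and were matched by symbol in both the count tables and the TPM tables. All 9 were found among the 53278 genes listed, and all 9 passed the filter on low counts in both experiments. With IL-33, Klf2, Klf3, Klf6, Foxo1 and S1pr4 were lower and Cd69 was higher, while S1pr1, Foxo3 and Btg1 were not called. Over all genes tested by edgeR, 16.1% were lower and 16.2% higher. In activated ILC2s without Blimp-1, S1pr1, Foxo1 and Klf3 were higher and Klf2, S1pr4 and Cd69 were lower than in controls by edgeR once Control replicate 2 was left out. In that fit 8.25% of all 17968 genes were higher and 5.72% lower. Only the calls of Foxo1 and S1pr4 held with any further library left out. With Control replicate 2 kept, edgeR called 0 of the 9 and 78 higher and 53 lower of all 17335 genes, and DESeq2 called 4 of the 9 and 557 higher and 551 lower of 30196.

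These genes form a circuit described in other lymphocytes. FOXO1 and FOXO3 are transcription factors that are held out of the nucleus when PI3K and AKT signal, and FOXO1 drives Klf2. KLF2, a zinc finger factor of resting lymphocytes, promotes quiescence and switches on S1pr1, the receptor with which a lymphocyte follows sphingosine-1-phosphate (S1P) out of a tissue. CD69, a lectin-like protein induced by activation, binds S1PR1 and removes it from the surface, which holds cells in place, and S1PR4 is a related S1P receptor of lymphocytes. KLF3 is a repressor that can act against KLF2 at shared sites, KLF6 is a widely expressed injury and stress response factor, and BTG1 is an antiproliferative protein that brings the CCR4-NOT deadenylase to mRNA. ILC2s are tissue-resident cells that answer the alarmins IL-33 and IL-25 with IL-5 and IL-13.

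The first experiment compared ILC2s of 8 female B6 mice, each mouse giving 1 library by the sample titles. The study's figure legends speak of sorting samples from pooled animals. Cells of 4 mice were cultured with 20 ng/mL IL-33 for 24 hours (IL-33 stimulated) and cells of 4 other mice were cultured without it (Unstimulated). The sample descriptions give no culture time for the latter, and the study's text puts it at 24 hours but also speaks of ex vivo cells. Should the times have differed, culture and IL-33 cannot be told apart. The second experiment compared 3 female Blimp-1IL7RaCre mice (Blimp-1-deficient) with 3 female, age-matched ControlIL7RaCre mice (Control), all of whose ILC2s were cultured for 72 hours in 20 ng/mL IL-33 plus 20 ng/mL IL-25. Blimp-1, encoded by Prdm1, is a transcriptional repressor of effector lymphocytes. The Cre is driven by Il7r and so acts in lymphoid lineages at large, including T and B cells, and not in ILC2s alone. In both experiments cells were sorted from whole lung as live, lineage-, CD90.2+ and CD3-. The study's methods list IL-2 in the 72 hour culture, which the sample descriptions do not. Since mice were separate by the sample titles, the p-values measure the spread between mice, or between pools if animals were pooled, each seen in a single library.

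The stimulation libraries held 10470125 to 32849428 counts and the Blimp-1 libraries 13570188 to 76448945. A library of each experiment stood apart. IL-33 stimulated replicate 3 was the shallowest of its experiment and had counts in 18166 genes, against 21476 to 22587 in the others. In Control replicate 2, 76.8% of counts lay on 7 loci (CT010467.1, Gm23935, Gm26917, Lars2, Mir6236, Gm15564 and mt-Rnr2), which held at most 4.12% elsewhere, and 3150795 counts were left for all other genes. The same 7 loci took 93.9% of its TPM (a transcript level scaled by gene length and library total), so TPM are given here after those loci were removed and each library rescaled. Calls are therefore given with and without these libraries. All 16 ILC2 markers, among them Gata3, Il1rl1 and Il13, had counts in every library, and edgeR called 4 of them higher and 10 lower with IL-33, with and without replicate 3, and 0 for Blimp-1 loss, or 4 higher and 6 lower without Control replicate 2. Over all genes it called 16.2% higher and 16.1% lower with IL-33, or 27.5% and 29.7% without replicate 3. For Blimp-1 loss these shares were 0.45% and 0.306%, or 8.25% and 5.72% without Control replicate 2. Prdm1 was read at 14.6, 11.5 and 11.4 CPM (counts scaled by library total, with TMM factors) in the Blimp-1-deficient libraries and at 75.2, 92.8 and 74.0 CPM in the Control libraries, a log2 difference of -2.68 ± 0.15 (SE, adjusted p = 0.00441 by edgeR), and the remaining reads were not placed on exons.

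The genes lie on GRCm38 as follows in the GENCODE vM21 annotation, in which all 9 are protein coding. Klf2 (ENSMUSG00000055148.7) spans chr8:72319033-72321656, Klf3 (ENSMUSG00000029178.14) chr5:64803388-64832901, and Klf6 (ENSMUSG00000000078.7) chr13:5861482-5870394. S1pr1 (ENSMUSG00000045092.8) spans chr3:115710433-115715072, S1pr4 (ENSMUSG00000044199.6) chr10:81497747-81500132, and Cd69 (ENSMUSG00000030156.5) chr6:129267325-129275436, all 3 on the minus strand. Foxo1 (ENSMUSG00000044167.6) spans chr3:52268336-52353221, Foxo3 (ENSMUSG00000048756.11) chr10:42181841-42276755 on the minus strand, and Btg1 (ENSMUSG00000036478.8) chr10:96617006-96622809. The library kit does not mark strand, so reads of overlapping genes cannot be told apart. Klf3 shares 404 exonic bases (3.59% of its own) with Gm20033, which held 0 to 11 counts in any library, and Foxo1 shares 674 (7.78%) with Gm20402, which held 0 in all 14. Stretches of 50 bases found in transcripts of genes outside the 9 made up at most 6.8% of any member's, in Foxo1, and 0 of those of Klf2, Klf6, S1pr1 and Foxo3. The 9 were not compared with each other.

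Promoter sequences were found for 7 members (Klf2, Klf3, Klf6, S1pr4, Foxo1, Foxo3 and Btg1; S1pr1 and Cd69 are named only) in RefSeq for GRCm38.p6, as windows from 250 bases before to 50 after a gene's start. Shown first are the 5 members that fell with IL-33, so that the promoters of the genes that moved together can be read side by side. Each runs 5′ to 3′ on the strand of the gene and stops at the first base that a GENCODE exon of the gene covers, or at the start. Capitals mark the KLF-type motif CCACCC, on either strand.
Klf2, chr8:72318812-72319032, plus strand: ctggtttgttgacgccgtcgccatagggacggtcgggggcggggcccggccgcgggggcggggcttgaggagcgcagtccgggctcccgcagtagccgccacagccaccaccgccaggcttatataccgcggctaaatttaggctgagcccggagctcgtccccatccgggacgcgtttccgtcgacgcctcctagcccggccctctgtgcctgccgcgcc
Klf3, chr5:64803271-64803387, plus strand: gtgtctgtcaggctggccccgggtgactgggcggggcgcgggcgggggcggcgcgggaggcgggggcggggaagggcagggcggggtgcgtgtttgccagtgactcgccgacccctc
Klf6, chr13:5861239-5861481, plus strand: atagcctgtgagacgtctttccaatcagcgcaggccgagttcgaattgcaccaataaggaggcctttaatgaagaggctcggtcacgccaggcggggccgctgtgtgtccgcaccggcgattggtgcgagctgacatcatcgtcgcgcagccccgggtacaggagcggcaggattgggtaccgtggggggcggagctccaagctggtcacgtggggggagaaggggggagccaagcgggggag
Foxo1, chr3:52268087-52268335, plus strand: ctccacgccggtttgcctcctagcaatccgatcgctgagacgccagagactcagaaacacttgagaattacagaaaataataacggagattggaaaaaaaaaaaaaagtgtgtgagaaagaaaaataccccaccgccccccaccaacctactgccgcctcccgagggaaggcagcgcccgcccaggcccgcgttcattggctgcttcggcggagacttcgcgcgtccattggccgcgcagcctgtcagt
S1pr4, chr10:81500138-81500387, minus strand: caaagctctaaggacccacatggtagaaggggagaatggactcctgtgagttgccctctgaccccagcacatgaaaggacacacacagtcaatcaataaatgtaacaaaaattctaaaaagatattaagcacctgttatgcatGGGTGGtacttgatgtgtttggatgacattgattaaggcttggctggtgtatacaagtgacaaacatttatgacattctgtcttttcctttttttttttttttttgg

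The motif CCACCC or its complement lay in the windows of 3 of the 7 members, against 31.5% of all 32851 promoter windows. Klf3 held 3 matches, at 121, 111 and 49 bases before the start, Klf2 a single match 19 bases before it, and S1pr4 a single match 107 bases before it. The start is that of RefSeq. In Klf2 and Klf3 the matches lay past the first base that a GENCODE exon covers, so none is in the stretches above. Only the S1pr4 match lay upstream of it. The FOXO motif GTAAACA, on either strand, was in the Btg1 window only, 204 bases before the start, and in 3.65% of all windows. The windows of Klf6, Foxo1 and Foxo3 held neither motif. Stretches of 30 bases around the matches in Klf2, Klf3 and Btg1 are given next with the match in capitals, and the Klf3 match on the other strand lies in lower case near the end of the first Klf3 stretch.
Klf2, chr8:72319031-72319060, plus strand: cctataaggcctGGGTGGgccgggccacag
Klf3, chr5:64803388-64803417, plus strand: cggcggctgcctCCACCCaagtgggtgggg
Klf3, chr5:64803460-64803489, plus strand: tccctgaccctcCCACCCcggctcccagcc
Btg1, chr10:96616785-96616814, plus strand: ggggggtttattTGTTTACaagcagattac
These matches describe letters in a short window and were not tied to any binding data.

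Per length, Klf6, Btg1 and S1pr4 were the most abundant of the 9 in unstimulated ILC2s and Klf2 the least. Mean levels there were 311 ± 11.7 TPM for Klf6, 182 ± 7.38 for Btg1, 119.96 ± 4.07 for S1pr4, 43.0 ± 3.21 for Foxo3, 31.0 ± 2.37 for Foxo1, 26.8 ± 8.11 for S1pr1, 24.5 ± 1.49 for Cd69, 21.4 ± 3.14 for Klf3 and 10.4 ± 3.43 for Klf2 (SD, n = 4). Foxo1, S1pr1, Cd69 and Klf3 followed each other in that order with ranges that overlapped between neighbours. Klf2 thus ranked last without IL-33, and 105 to 242 counts per library carried its value in unstimulated cells.

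**Figure D1:**
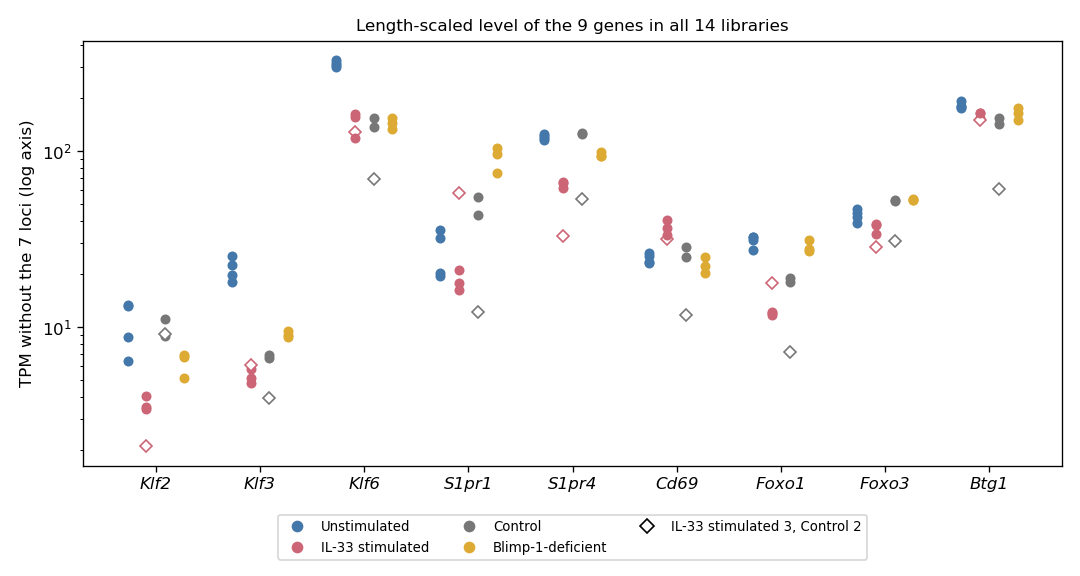
TPM of each gene in all 14 libraries on a log axis, after removal of the 7 loci named in the text; each point is a library, colours give the group, and open diamonds mark IL-33 stimulated replicate 3 and Control replicate 2. Klf2, Klf3, Klf6, S1pr4 and Foxo1 were lower in every IL-33 library than in any unstimulated library, and S1pr1 was highest in the Blimp-1-deficient group at 74.7 to 104 TPM.

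Across the 4 groups the genes ranked the groups differently. Without the 2 odd libraries, S1pr1 averaged 18.3 ± 2.43 TPM with IL-33 (n = 3), 26.8 ± 8.11 unstimulated (n = 4), 49.0 ± 8.10 in Control (n = 2) and 91.4 ± 15.1 in Blimp-1-deficient cells (n = 3), and the ranges of the lower pair overlapped while the others did not. Foxo1 took another order, with 12.0 ± 0.22, 18.6 ± 0.70, 28.6 ± 2.31 and 31.0 ± 2.37 TPM in the IL-33, Control, Blimp-1-deficient and unstimulated groups, the upper pair overlapping. Klf2 averaged 3.67 ± 0.36 TPM with IL-33, 6.28 ± 0.98 in Blimp-1-deficient cells and 10.4 ± 3.43 unstimulated, with 8.90 and 11.1 TPM in the 2 Control libraries, and only the IL-33 range was clear of all the others. S1pr4 averaged 64.7 ± 2.58 TPM with IL-33, 95.4 ± 2.61 in Blimp-1-deficient cells, 119.96 ± 4.07 unstimulated and 125 ± 1.75 in Control, with overlap only in the upper pair. Cd69 was highest with IL-33 at 36.9 ± 3.61 TPM and overlapped among the other 3 groups, at 22.5 to 26.6. Experiment, culture time, cytokines and mouse line differ together between the 2 experiments, so these cannot be told apart and no test was made across them.

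The first comparison asked how 24 hours of IL-33 changed these genes. Of the 9, 5 were lower and 1 was higher by edgeR's quasi-likelihood test at an adjusted p below 0.05, and the same 6 were called without IL-33 replicate 3. Over all 15466 genes tested, 16.1% were called lower and 16.2% higher, and without that replicate 29.7% and 27.5% of 15733. With library size alone as the scaling, 3691 genes were lower and 1805 higher in place of 2484 and 2508, and the 6 members were called all the same. The median log2 fold change over all genes was 0.06, and -0.05 without the replicate.

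**Figure D2:**
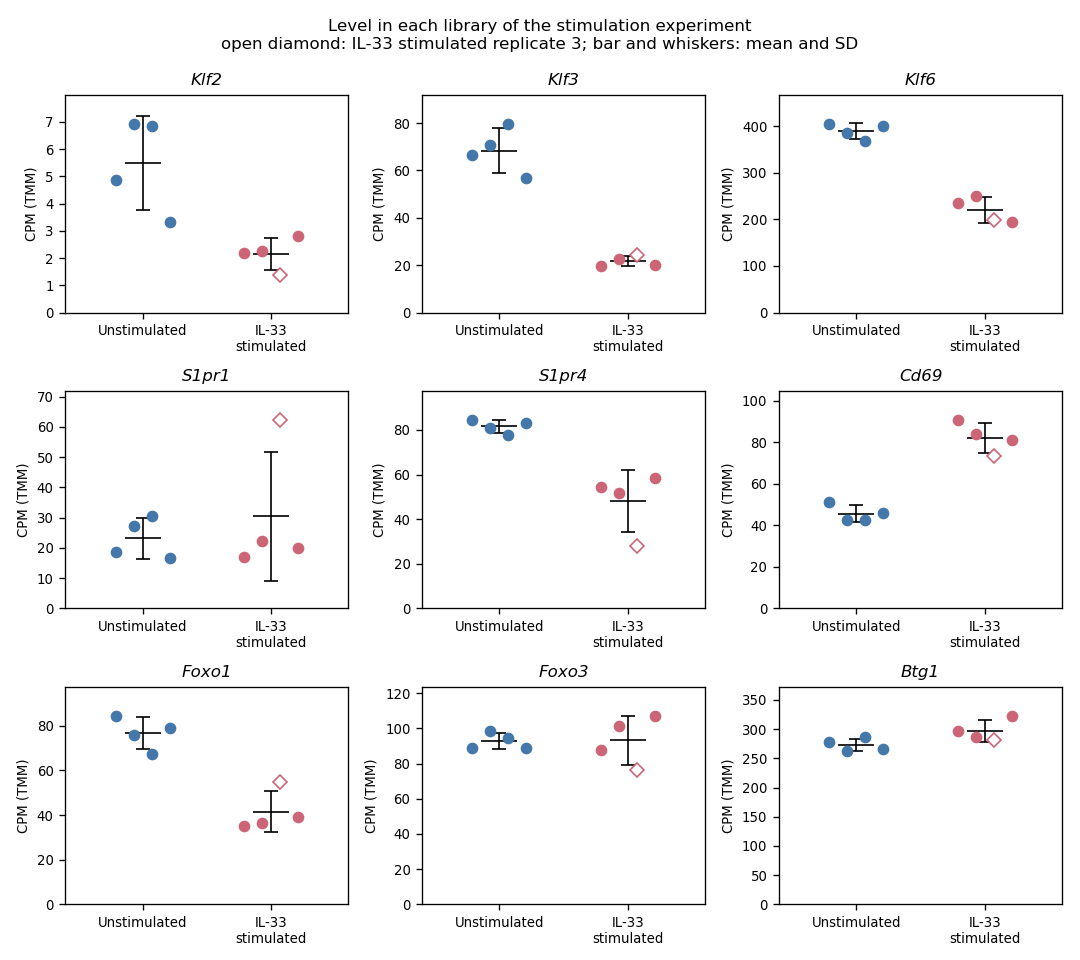
TMM-scaled CPM of each gene in the 4 unstimulated and 4 IL-33 stimulated libraries; points are libraries, the bar and whiskers are the mean and SD, and the open diamond is IL-33 stimulated replicate 3. The groups do not overlap for Klf2, Klf3, Klf6, S1pr4, Cd69 and Foxo1, and the diamond lies far above the rest for S1pr1 at 62.4 CPM.

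Klf3 showed the largest fall. It stood at 66.5, 70.6, 79.7 and 56.6 CPM in the unstimulated libraries and at 19.8, 22.7, 24.4 and 20.1 CPM with IL-33, so that the highest stimulated library was below the lowest unstimulated one by a wide margin. The log2 fold change was -1.65 ± 0.12 (SE, n = 4 and 4, adjusted p = 6.42e-05 by edgeR), a 3.14-fold fall. Klf6, the most abundant of the 9 in unstimulated cells, stood at 405, 385, 369 and 400.0 CPM without the cytokine and at 236, 249.5, 199 and 194 CPM with it. Its groups did not overlap either, and it fell by 0.83 ± 0.09 on the log2 scale (adjusted p = 0.000415 by edgeR). Klf2 was read at 4.86, 6.93, 6.84 and 3.31 CPM in unstimulated cells and at 2.17, 2.27, 1.38 and 2.80 CPM after IL-33. The groups were separate but close, since the gap ran from 2.80 to 3.31 CPM, and the unstimulated mice differed among themselves by more than that gap, from 3.31 to 6.93 CPM. The log2 fold change of Klf2 was -1.34 ± 0.33 (adjusted p = 0.0150 by edgeR), and -1.18 ± 0.27 without IL-33 replicate 3 (adjusted p = 0.00382), the library in which Klf2 had 14 counts.

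Foxo1 fell as well. Unstimulated libraries gave 84.5, 75.9, 67.3 and 78.9 CPM and IL-33 libraries 35.0, 36.5, 55.0 and 39.3 CPM, of which the 55.0 was replicate 3. The fall was 0.89 ± 0.15 on the log2 scale and the groups did not overlap (log2 fold change -0.89, adjusted p = 0.00303 by edgeR). Without replicate 3 it was -1.05 ± 0.08 (adjusted p = 3.19e-06). Foxo3, its paralog, did not pass the test. It lay at 88.9, 98.7, 94.5 and 89.0 CPM against 87.6, 101, 76.1 and 107 CPM, with a log2 fold change of 0.01 ± 0.11 (adjusted p = 0.971 by edgeR), and the stimulated range enclosed the unstimulated one.

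Among the genes that steer movement, Cd69 rose and S1pr4 fell. Cd69 stood at 51.4, 42.8, 42.4 and 45.8 CPM in unstimulated libraries and at 90.8, 83.7, 73.4 and 80.8 CPM with IL-33. Every stimulated library was above every unstimulated one, and the log2 fold change was 0.85 ± 0.09 (adjusted p = 0.000342 by edgeR), a 1.80-fold rise. S1pr4 stood at 84.6, 80.8, 77.6 and 83.3 CPM against 54.6, 51.6, 27.8 and 58.3 CPM, the 27.8 again being replicate 3. The log2 fold change was -0.76 ± 0.21 (adjusted p = 0.0244 by edgeR) and -0.57 ± 0.06 without that library (adjusted p = 2.04e-05). Its call was lost without IL-33 replicate 2 (adjusted p = 0.0540) or without Unstimulated replicate 3 (adjusted p = 0.0555), at log2 fold changes of -0.79 in both, each with replicate 3 kept.

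S1pr1 was not called, and its direction turned on a single library. It was read at 18.5, 27.2, 30.4 and 16.5 CPM in unstimulated cells and at 16.9, 22.4, 62.4 and 20.1 CPM with IL-33, where the 62.4 was replicate 3 and the other 3 lay inside the unstimulated range. The log2 fold change was 0.39 ± 0.44 (adjusted p = 0.518 by edgeR) with all libraries and -0.22 ± 0.20 (adjusted p = 0.372) without replicate 3. S1pr1 and Klf2 are also strongly expressed by endothelial cells, and the 14 endothelial markers (such as Cdh5, Kdr and Emcn) were read in all 8 libraries. Their summed level was 109.8, 186, 249.8 and 117 TPM in unstimulated replicates 1 to 4, in which S1pr1 was at 20.3, 32.0, 35.4 and 19.4 TPM and Klf2 at 8.78, 13.4, 13.1 and 6.41 TPM. Both genes were thus highest in the same 2 mice as the endothelial sum. With IL-33 the sum was 94.0, 114, 128 and 100.5 TPM, and edgeR called 6 of the 14 markers lower and 1, Pecam1, higher with all libraries, and 13 lower and the same 1 higher without replicate 3. The shares of all genes were 16.1% lower and 16.2% higher, and 29.7% and 27.5% without replicate 3. The part of endothelial RNA in the levels of S1pr1 and Klf2 was not tested, and fewer cells of a type cannot be told from less RNA per cell in bulk samples.

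Btg1 was not called. Its levels were 277, 263, 286 and 266 CPM in unstimulated libraries and 297, 286, 282 and 323 CPM with IL-33, with overlap between the groups and a log2 fold change of 0.12 ± 0.065 (adjusted p = 0.1798 by edgeR). On the TPM scale, where the median of all genes moved by -0.25 in the limma fit of log2(TPM + 1), the same gene leaned down (-0.21, adjusted p = 0.117), as did Foxo3 (-0.33, adjusted p = 0.101). Neither gene was called in any of 16 alternative fits of this comparison.

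T cell marker transcripts moved alongside the genes that fell. The 12 T cell markers summed to 736 to 866 TPM in unstimulated libraries and to 160 to 225 TPM with IL-33, most of it the T cell receptor constant genes Trbc2 and Trbc1, while Cd3e was at 3.97 to 8.31 TPM and then at 1.16 to 3.67 TPM. With all libraries, 6 of the 12 were called lower and 0 higher, and 7 and 0 without replicate 3. Over all genes 16.1% were lower and 16.2% higher, and 29.7% and 27.5% without replicate 3. Epithelial and stromal markers summed to 398 to 601 TPM and then to 81.5 to 189 TPM, myeloid markers to 232 to 509 and then to 83.2 to 244 TPM, and mast cell and basophil markers to 137 to 179.9 and then to 43.5 to 58.0 TPM. B cell markers summed to 29.2 to 33.2 and 30.03 to 36.5 TPM and NK cell and ILC1 markers to 9.71 to 15.2 and 4.29 to 11.8 TPM. Of the markers tested, edgeR called 5 of 9 epithelial and stromal, 2 of 3 mast cell and basophil, 1 of 6 NK cell and 0 of 9 myeloid ones lower with all libraries, and 7, 2, 1 and 2 without replicate 3. Of 3 B cell markers, 1 was called higher and 1 lower with all libraries, and 1 and 2 without replicate 3. Their part in the falls of Klf2, Foxo1 and S1pr4 was not tested.

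The wider families were read from lists of related genes, to be set against the 16.1% lower and 16.2% higher of all genes, or 29.7% and 27.5% without replicate 3. Of 13 KLF genes tested, 8 were lower with IL-33 and 0 higher, with a median of -0.83, and 9 and 0 without replicate 3. Leaving out the 3 members, 5 of 10 were lower, led by Klf10 (-1.95 ± 0.07) and Klf13 (-1.55 ± 0.08), the latter a factor of lymphocyte chemokine expression. In the S1P pathway 8 of 23 genes were lower and 1 higher (median -0.17), or 12 and 3 without replicate 3, among the lower ones S1pr2, a receptor that restrains migration (-0.54 ± 0.11), and Plpp1, which dephosphorylates lipid phosphates (-0.91 ± 0.28). Of 11 homing and egress receptors, 5 were lower and 1 higher, or 5 and 2 without replicate 3, including the integrin chain Itgb7 (-1.62 ± 0.19) and the chemokine receptors Cxcr5 (-1.32 ± 0.28) and Cxcr4 (-0.99 ± 0.24). Of 11 tissue retention genes, 4 were higher and 0 lower, with Nr4a1, an activation-induced nuclear receptor, at 3.87 ± 0.20 and Rgs16, a brake on chemokine receptor signalling, at 0.77 ± 0.17 (SE, all past an adjusted p of 0.05 by edgeR). Without replicate 3 the retention list gave 4 higher and 3 lower, Rgs2 among the latter (-0.99 ± 0.14).

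Genes upstream and downstream of FOXO were called in both directions, to be set against the same shares of all genes. Of 22 genes of the PI3K and AKT pathway list other than Foxo1 and Foxo3, 4 were lower with IL-33, a share near that of all genes, and 1 higher. Without replicate 3, 10 were lower and 6 higher, the latter again near the share of all genes. Sgk1, a kinase that phosphorylates FOXO proteins, was at -1.84 ± 0.25, and Pik3cd, the PI3K catalytic subunit of leukocytes, at -0.99 ± 0.16, whereas Mtor was at 0.42 ± 0.09. Of 25 FOXO targets, 10 were lower and 5 higher (median -0.38), and 13 and 7 without replicate 3. The pro-apoptotic Bcl2l11 (-1.79 ± 0.12) and the metabolic regulator Txnip (-1.46 ± 0.17) were lower and the mitophagy gene Bnip3 (1.86 ± 0.18) was higher. Of 19 quiescence genes 9 were lower and 2 higher, or 10 and 2 without replicate 3, with the cyclin-dependent kinase inhibitor Cdkn2c (-1.81 ± 0.16), Bach2 (-1.36 ± 0.11) and Tcf7 (-1.32 ± 0.19) lower and Peli1 (0.95 ± 0.09) and Foxp1 (0.86 ± 0.18) higher. The proliferation list had 8 of 20 lower and 2 higher, or 11 and 4 without replicate 3, with Ccnb2 (-1.44 ± 0.14) and Ccna2 (-0.97 ± 0.11), both mitotic cyclins, lower and Myc (1.65 ± 0.13) higher. In the BTG and CCR4-NOT list 3 of 17 were higher, a share near that of all genes, and 1 lower, the deadenylase Cnot6l (-1.32 ± 0.07), and without replicate 3 the counts were 6 and 2. Immediate-early and stress genes, which also respond to handling, had 10 of 24 higher and 3 lower, with Klf6 among the latter, and 11 and 6 without replicate 3 (all calls by edgeR). Several lists share genes or hold some of the 9. With those of the 9 left out, 7 of 21 S1P pathway genes, 4 of 9 homing receptors, 9 of 23 FOXO targets and 7 of 15 quiescence genes were lower and 3 of 10 retention genes were higher, with all libraries. No list was tested as a set.

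The patterns most like those of Klf2, S1pr1 and Cd69 across the 8 stimulation libraries were searched among 10810 genes, as Pearson's r of log2 CPM. For Klf2 they were Cd96 (r = 0.987), Pard6g, Pdrg1, Hnrnpll and 1110008P14Rik, of which only Cd96 (0.989) was still among the 5 most alike over 7 libraries without IL-33 replicate 3. For Cd69 they were Fam46a (0.994), Peli1, Csf2rb2, Tex2 and Psmb2, and none of these was among the 5 most alike without replicate 3. For S1pr1 they included Pdgfa (0.975), Crim1, Eid2 and Gsdme, and of these only Crim1 was still among the 5 most alike without replicate 3. All libraries share the contrast between the groups and their depth, and the values are descriptions only.

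The second comparison asked what Blimp-1 loss changed in ILC2s activated for 72 hours. With all 6 libraries edgeR called 0 of the 9 genes, while 0.45% of 17335 genes were called higher and 0.306% lower. At an unadjusted p below 0.05 the test picked 5 of the 9 (Klf2, S1pr1, S1pr4, Cd69 and Foxo1) and 2071 of the 17335 genes. DESeq2 called 4 (S1pr1 and Foxo1 higher, Klf2 and S1pr4 lower) beside 557 higher and 551 lower of 30196 genes, and limma on log2(TPM + 1) called 0 of the 9 and 0 of 13948. Without Control replicate 2, edgeR called 3 higher (S1pr1, Foxo1 and Klf3) and 3 lower (Klf2, S1pr4 and Cd69), against 8.25% higher and 5.72% lower over 17968 genes. Across the genes tested by edgeR, log2 fold changes had a median of -0.02 with all libraries and of 0.01 without that library.

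**Figure D3:**
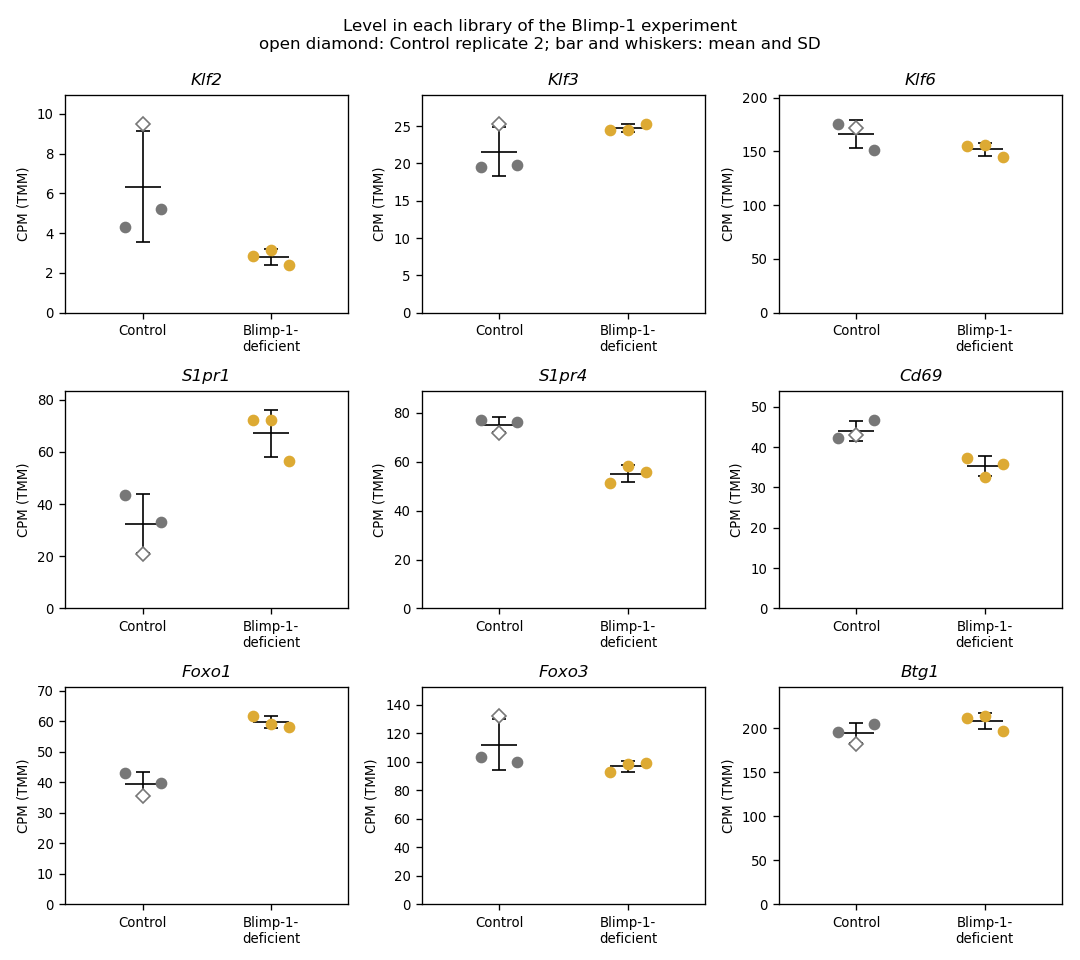
TMM-scaled CPM of each gene in the 3 Control and 3 Blimp-1-deficient libraries; points are libraries, the bar and whiskers are the mean and SD, and the open diamond is Control replicate 2. S1pr1 and Foxo1 lie higher, and Klf2, S1pr4, Cd69 and Foxo3 lower, in every Blimp-1-deficient library than in any Control library.

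S1pr1 had the largest difference of the 9 without Control replicate 2, and Klf2 with it. S1pr1 stood at 72.4, 72.4 and 56.6 CPM in the Blimp-1-deficient libraries and at 43.4, 20.9 and 33.3 CPM in Control, where the 20.9 came from replicate 2 with 86 counts. The groups did not overlap. The log2 fold change was 1.01 ± 0.25 (SE, n = 3 and 3, adjusted p = 0.174 by edgeR) with all libraries and 0.82 ± 0.15 (adjusted p = 0.0159) without Control replicate 2, a 1.76-fold difference. With Control replicate 3 left out too, it was no longer called, nor by limma on log2(TPM + 1) without Control replicate 2 (adjusted p = 0.0550). The summed endothelial markers ran the same way, at 366, 330.1 and 259.5 TPM in Blimp-1-deficient replicates 1 to 3 and at 218, 44.4 and 161 TPM in Control replicates 1 to 3, beside S1pr1 at 104, 95.9 and 74.7 TPM and at 54.7, 12.1 and 43.2 TPM. Both quantities had the same order over the 6 libraries, although Control replicate 2 was low in TPM for the sum of the 9 genes as well (258 against 567 to 653). Of the 14 markers, edgeR without Control replicate 2 called Pecam1 (1.149 ± 0.08, adjusted p = 0.000675), a protein also made by leukocytes, and Lyve1 (1.64 ± 0.33), named after its values were seen, higher and 0 lower, and the endothelial cadherin Cdh5 was at 39.7, 33.1 and 23.5 TPM against 29.9, 7.47 and 19.7 TPM. That fit called 8.25% of all genes higher and 5.72% lower. In it Pecam1, which is part of the endothelial sum, averaged 215 CPM in Blimp-1-deficient and 96.8 CPM in Control libraries. The sum was not taken without Pecam1. The part of endothelial RNA in the difference in S1pr1 was not tested.

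**Figure D4:**
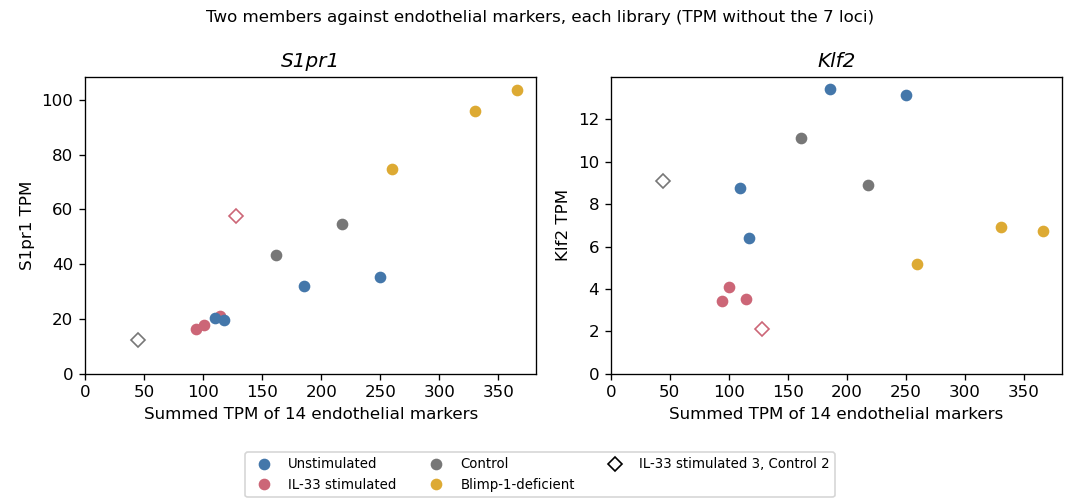
TPM of S1pr1 (left) and Klf2 (right) against the summed TPM of 14 endothelial markers, after removal of the 7 loci; each point is a library, coloured by group, and open diamonds are IL-33 stimulated replicate 3 and Control replicate 2. Among the Blimp-1-deficient libraries and Control replicates 1 and 3, S1pr1 runs from 43.2 TPM at a sum of 161 to 104 TPM at 366, with unstimulated replicate 3 lower, at 35.4 TPM for 249.8. In the S1pr1 panel Control replicate 2 is low on both axes, as it was for the summed TPM of the 9 genes (258 against 567 to 653). Klf2 in that library is at 9.08 TPM. In the Blimp-1-deficient libraries, where the sum is highest, Klf2 is at 5.16 to 6.93 TPM. With IL-33 it is at 2.11 to 4.08 TPM, at sums of 94.0 to 128 TPM.

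Foxo1 was higher without Blimp-1. It was read at 61.9, 59.2 and 58.0 CPM in Blimp-1-deficient libraries and at 43.1, 35.6 and 39.7 CPM in Control, with no overlap. The log2 fold change was 0.59 ± 0.10 (adjusted p = 0.0564 by edgeR) and 0.54 ± 0.07 without Control replicate 2 (adjusted p = 0.00447), and Foxo1 stayed called when any further library was left out with it. Klf3, at 24.5, 24.5 and 25.3 CPM against 19.6, 25.3 and 19.8 CPM, overlapped through Control replicate 2 alone. Its log2 fold change was 0.21 ± 0.13 (adjusted p = 0.596 by edgeR) with all libraries and 0.34 ± 0.06 (adjusted p = 0.0141) without that replicate, when just 2 Control libraries were left. That call was lost with Blimp-1-deficient replicate 3, Control replicate 1 or Control replicate 3 also left out, and by limma on log2(TPM + 1) (adjusted p = 0.0546).

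S1pr4, Cd69 and Klf2 were lower. S1pr4 stood at 51.3, 58.2 and 55.6 CPM without Blimp-1 and at 77.1, 71.6 and 76.4 CPM in Control, so that it moved opposite to S1pr1 in the same libraries. Its log2 fold change was -0.45 ± 0.09 (adjusted p = 0.0859 by edgeR) and -0.47 ± 0.06 without Control replicate 2 (adjusted p = 0.00530), and the latter call held with any further library left out. Cd69 stood at 37.4, 32.7 and 35.9 CPM against 42.1, 43.1 and 46.8 CPM, at -0.32 ± 0.09 (adjusted p = 0.238 by edgeR) and -0.32 ± 0.08 without Control replicate 2 (adjusted p = 0.0402). Klf2 was read at 2.85, 3.17 and 2.37 CPM against 4.28, 9.50 and 5.19 CPM, where the 9.50 rested on the 39 counts of Control replicate 2. The difference in Klf2 was -1.13 ± 0.33 (adjusted p = 0.241 by edgeR), and -0.75 ± 0.17 without that library (adjusted p = 0.0331). With any further library left out, Klf2 was no longer called, and Cd69 was called only with Blimp-1-deficient replicate 1 left out. Neither was called without Control replicate 2 by limma or with library size alone as the scaling. The endothelial sum was higher in the Blimp-1-deficient group, where Klf2 was lower.

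Klf6, Foxo3 and Btg1 passed in neither fit. Klf6 stood at 155, 156 and 145 CPM against 176, 172 and 151 CPM, at a log2 fold change of -0.13 ± 0.10 (adjusted p = 0.686 by edgeR). Foxo3 stood at 92.7, 98.8 and 99.2 CPM against 103, 132.5 and 99.9 CPM, at -0.20 ± 0.13 with all libraries and -0.06 ± 0.06 without Control replicate 2 (adjusted p = 0.622 and 0.514 by edgeR). Btg1 stood at 211, 214 and 197 CPM against 196, 182 and 205 CPM and overlapped between the genotypes (0.10 ± 0.10, adjusted p = 0.766 by edgeR).

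**Figure D5:**
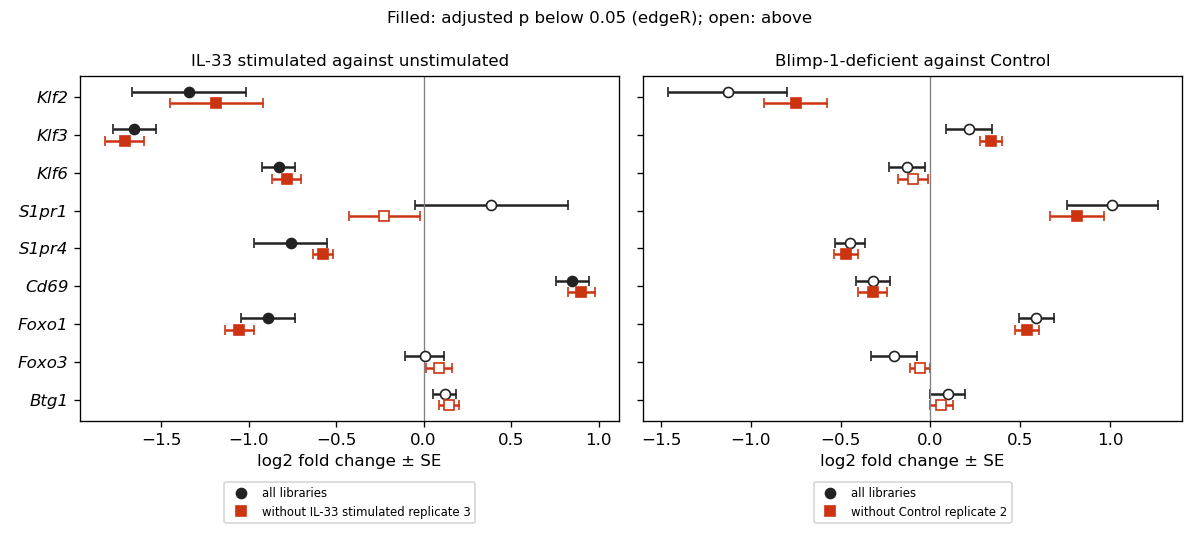
Log2 fold change ± SE of each gene by edgeR, for IL-33 stimulated against unstimulated (left) and Blimp-1-deficient against Control (right); circles use all libraries, squares leave out IL-33 stimulated replicate 3 or Control replicate 2, and filled symbols have an adjusted p below 0.05. On the left the 6 called genes are filled with and without the library, and on the right 6 genes are filled only as squares.

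Set side by side, Foxo1 (-1.05 and 0.54), Klf3 (-1.71 and 0.34) and Cd69 (0.90 and -0.32) were called in opposite directions by IL-33 and by Blimp-1 loss without the 2 odd libraries, Klf2 (-1.18 and -0.75) and S1pr4 (-0.57 and -0.47) were called lower in both, and Klf6 (-0.78 and -0.10) and S1pr1 (-0.22 and 0.82) were called in one comparison each. The experiments share no library, and whether the effects differ between them was not tested.

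The same lists were read for Blimp-1 loss, against 0.45% of all genes higher and 0.306% lower, or 8.25% and 5.72% without Control replicate 2. With all 6 libraries edgeR called 0 in 7 of the 10 lists, and in the others Plpp3 (0.87 ± 0.12), a lipid phosphatase, Gpr183 (0.74 ± 0.10), an oxysterol receptor that guides lymphocyte position, and Sesn3 (1.58 ± 0.12), a stress-inducible FOXO target, were each higher. Without Control replicate 2 the homing and egress list had 4 of 11 higher and 2 lower, with Cxcr4 (0.75 ± 0.15) and Gpr183 (0.68 ± 0.07) higher and the integrin chain Itga4 (-0.43 ± 0.07) lower. The S1P pathway had 3 of 24 higher and 1 lower, with the receptor S1pr3 at 1.24 ± 0.28 and Plpp3 at 0.80 ± 0.08. Of 25 FOXO targets 7 were higher and 2 lower (median 0.24), led by Sesn3 (1.51 ± 0.07) and the autophagy gene Gabarapl1 (0.97 ± 0.12), with Cited2 lower (-0.57 ± 0.10). The PI3K and AKT list without Foxo1 and Foxo3 had 2 of 23 higher and 1 lower, shares near those of all genes. Sgk1 (0.42 ± 0.07) and Rptor (-0.25 ± 0.05) were among these.

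In the remaining lists, still without Control replicate 2, KLF genes had 2 of 13 higher (Klf12 at 0.56 ± 0.12 beside Klf3) and 4 lower, among them Klf8 (-0.57 ± 0.10) and Klf10 (-0.48 ± 0.09). Tissue retention genes had 2 of 11 higher, Nr4a1 (0.72 ± 0.16) and Rgs16 (0.63 ± 0.14), and 1 lower, which was Cd69. Quiescence genes had 3 of 19 higher and 3 lower, with Tcf7, a factor of naive and progenitor lymphocytes (1.88 ± 0.34), and the IL-7 receptor chain Il7r (0.50 ± 0.08) higher and Peli1 (-0.64 ± 0.08) lower. The BTG and CCR4-NOT list had 0 higher and 2 of 17 lower, Cnot6l (-0.66 ± 0.08) and Tob1 (-0.34 ± 0.08), the latter an antiproliferative relative of BTG1. Proliferation genes had 1 of 20 higher, Top2a (0.25 ± 0.06), and 0 lower, and immediate-early genes 4 of 24 higher and 3 lower (all calls by edgeR). With those of the 9 left out, the counts higher and lower were 2 and 0 of 22 S1P pathway genes, 3 and 1 of 9 homing receptors, 6 and 1 of 23 FOXO targets, 1 and 3 of 10 KLF genes, 2 and 0 of 10 retention genes and 2 and 2 of 15 quiescence genes.

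Markers of other cells were read in the same libraries. Their calls are by edgeR without Control replicate 2, where 8.25% of all genes were higher and 5.72% lower. Epithelial and stromal markers summed to 357 to 536 TPM without Blimp-1 and to 116 and 263 TPM in Control replicates 1 and 3, with 1394 TPM in Control replicate 2, and edgeR without that library called 4 of 12 higher and 0 lower. NK cell and ILC1 markers summed to 6.55 to 26.2 TPM without Blimp-1, to 27.3 and 20.7 TPM in Control replicates 1 and 3 and to 12.8 TPM in replicate 2, and 2 of 9 were called lower. T cell markers summed to 211 to 234 TPM against 189.8 and 147 TPM, with 92.9 TPM in Control replicate 2, and 2 of 12 were called higher. B cell markers summed to 59.2 to 68.6 TPM against 39.1 and 54.2 TPM, with 14.8 TPM in Control replicate 2, and 1 of 5 was called higher. Myeloid markers summed to 100.4 to 320.5 TPM against 87.7 and 366 TPM, with 86.5 TPM in Control replicate 2, and 2 of 11 were called higher. Mast cell and basophil markers summed to 76.6 to 96.6 TPM against 66.3 and 70.8 TPM, with 28.2 TPM in Control replicate 2, and 0 of 3 were called. Their part in the differences called among the 9 genes was not tested.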

How the data were processed

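RNA from 14 ILC2 libraries had been prepared with SMART-seq v4 and Nextera XT. Per the labels and the study's methods, the authors' reads passed through cutadapt and HISAT2 against the mouse genome (mm10 in the submitters' notes, which also list Bowtie2 and DESeq2) and were counted per gene with Subread. The deposited tables hold raw counts and, separately, TPM that the authors computed from those counts and gene lengths, 1 pair of tables per experiment.

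Counts were tested with edgeR 4.0.16 in R 4.3.3 (quasi-likelihood, TMM, filterByExpr, group as the only term), each experiment alone, two-sided, with Benjamini-Hochberg adjustment over all genes tested at a threshold of 0.05. The SE is the log2 fold change divided by the square root of F. DESeq2 1.42.0, limma 3.58.1 on log2(TPM + 1) and log2(TPM + 0.1), other scalings, other filters and libraries left out were the alternatives. The test was checked on simulated data, in which only genes averaging above 5 CPM were changed. Klf2, at 3.82 and 4.56 CPM on average, lay below that. All libraries were drawn from a common profile of mean levels, so the odd make-up of IL-33 stimulated replicate 3 and Control replicate 2 was not simulated. Of 100 genes given an absolute log2 change of 1, it recovered 54 in the IL-33 comparison and 41 in the Blimp-1 comparison. At a change of 2 it recovered 76 and 90 of 100. False calls were 2 of 132 and 6 of 137. Counts in a library give counting precision only. CPM are from the fit over all libraries of an experiment, except where stated.

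All members are named. Of each of 10 pathway lists, up to 3 rises and 3 falls past the threshold are named, when averaging 5 CPM or more and having groups that do not overlap, and the text gives a selection of these. For Klf2, S1pr1 and Cd69 the 5 most alike genes are named, except 1 that is not reported here. Members, lists and markers (8 lists) were chosen with earlier results of these data known. TPM were summed per marker list after removal of the 7 loci. Protein sequences were not used here. Motif searches covered both strands.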

Additional observations from a re-analysis of the deposited data

Results flagged for a closer look

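Of 18 gene and group combinations with 4 libraries, 1 had a library far from the others by Dixon's test (by whose critical value chance marks about 1 group in 20). S1pr1 in IL-33 stimulated replicate 3 was at 62.4 CPM, with the nearest library of its group at 22.4 CPM, and the gap was 0.880 of the group's range. The value rested on 633 counts of S1pr1. In the same library the 14 endothelial markers summed to 128 TPM, against 94.0 to 114 TPM in the other 3. Cldn5, a tight junction gene of endothelium and 1 of the 14, was at 25.1 TPM against 0.88 to 3.21 TPM in the other 3, and the S1P phosphatase gene Plpp3 was at 67.7 TPM against 8.12 to 9.77 TPM. Not all of the 14 were raised in this library. The IL-33 group mean of Pecam1 was 124.1 CPM with it and 129.6 CPM in the fit without it. For Plvap these means were 10.01 and 10.66 CPM, and for Emcn, which went the other way, 11.39 and 10.73 CPM. Cldn5 and Plpp3 were singled out after their values were seen, and their part in the S1pr1 value was not tested.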

How the results depend on the processing

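In the IL-33 comparison Cd69 was called higher in all 16 alternatives, as were Klf3, Klf6 and Foxo1 lower, S1pr4 in 14 and Klf2 in 15. Mice were separate by the sample titles, so shared mouse numbers were not taken as pairs. Deviations of same-numbered libraries correlated at -0.14, 0.22, 0.28 and 0.18, and at -0.13, -0.13 and 0.12 in the Blimp-1 experiment. Other-numbered libraries correlated at -0.28 to 0.26, and at -0.21 to 0.18 in the Blimp-1 experiment. With so few libraries these values cannot decide whether the numbers mark pairs. With the replicate block 4 members were lower (Klf2 at -1.32, adjusted p = 0.0698 by edgeR), Cd69 was higher, Foxo3 was at -0.0047, and the Blimp-1 comparison gave 0 and 0 called. Direction turned for genes that were not called. For S1pr1 it was -0.10 in both limma fits and, leaving out each library, -0.22 (without IL-33 replicate 3) to 0.58, and for Foxo3 -0.16 with library size alone, -0.016 without a filter, -0.33 and -0.34 in the limma fits and, leaving out each library, -0.070 (without IL-33 replicate 4) to 0.091, also below 0 without IL-33 replicate 2 (-0.038). For Btg1 it was -0.041 with library size alone and -0.21 in both limma fits. These scalings moved the median of all genes to -0.10, -0.25 and -0.29.

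In the Blimp-1 comparison, where 0 members were called each way, DESeq2 called 2 higher and 2 lower, a mean count of at least 50 gave 1 and 1, and leaving out each library gave 0 to 3 and 0 to 3, the 3 without Control replicate 2. The next settings, all chosen after seeing the data, leave that library out. DESeq2 and RLE gave 3 and 3 (1932 and 1632 of 29886 genes, and 1452 and 1022 of 17968), library size alone 3 and 1, without Klf2 and Cd69 (1698 and 720 of 17968), and limma on log2(TPM + 1) 1 and 1, Foxo1 and S1pr4 (730 and 292 of 14389). With Blimp-1-deficient replicate 1, 2 or 3 also left out the counts were 3, 3 and 2 higher and 2, 1 and 1 lower, and with Control replicate 1 or 3 they were 2 and 1 higher and 1 and 1 lower. With Control replicate 2 kept, library size alone, limma on log2(TPM + 1), limma on log2(TPM + 0.1) and limma without the 7 loci moved the median of all genes to 0.45, 1.28, 1.69 and 0.42 and turned the sign of Klf6 (0.38, 1.56, 1.64 and 0.34), S1pr4 (0.018, 1.22, 1.32 and 0.018), Cd69 (0.16, 1.07, 1.41 and 0.14) and Foxo3 (0.37, 1.39, 1.56 and 0.26), none of them called. Klf2 turned in the plain limma fits (0.32 and 0.62). Without Control replicate 2, Foxo3 was at 0.0022 with library size alone and 0.00095 with limma, and Klf6 at 0.021 with Control replicate 1 also left out. Over all genes, 78 higher and 53 lower calls with all libraries became 557 and 551 in DESeq2, 149 and 107 at a mean count of at least 50, 0 and 0 with the replicate block and 1483 and 1027 without Control replicate 2, and the IL-33 calls (2508 and 2484) became 990 and 4555 in limma on log2(TPM + 1). The causes were not tested. Klf2 had the fewest counts of the 9 in every library, 14 to 242 in the IL-33 experiment, and its values are the least precise by counting.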
